A study of Mus musculus with 18 samples.

Results

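Adipoq, Fabp4, Lpl and Angptl4 are 4 genes of the fat cell that make a hormone or handle fatty acids. Their probe sets, the groups of oligonucleotides that an Affymetrix array carries for a transcript, were taken by gene symbol. This gave 8 probe sets for 4 of the 8251 genes with a single symbol on the array: 1 for Adipoq, 1 for Fabp4, 2 for Lpl and 4 for Angptl4. For each gene the probe set with the highest mean log2 intensity stands for the gene, and the others are given beside it.

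The cells were C3H10T1/2, a mouse embryo fibroblast line that can be turned into fat cells. They were collected 72 h after their last serum and 24 h after confluence, and each of the 18 arrays carried mRNA pooled from 6 cultures. IDMB, the adipogenic mix, was given for 24 h and held 10 µg/mL insulin, 1 µM dexamethasone (a synthetic glucocorticoid), 0.5 µM IBMX (a phosphodiesterase inhibitor that raises cAMP) and 1 µM BRL49653 (rosiglitazone, an agonist of PPARG). TCDD, a dioxin that activates the aryl hydrocarbon receptor, was given at 10 nM for 72 h, and EGF, epidermal growth factor, at 10 nM for 24 h. The 8 groups hold all combinations. There were 3 arrays of UT, read as untreated cells, and 3 of IDMB. TCDD, EGF, EGF+TCDD, IDMB + TCDD, IDMB + EGF and IDMB + EGF + TCDD had 2 arrays each. All results are for a single cell line at a single time. The labels call the arrays replicates but do not say that they came from separate experiments, so the p-values measure the spread between these arrays, which may be technical.

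PPARG, paired with an RXR receptor, drives the fat cell programme and acts on enhancers or promoters of all of these genes. Adipoq encodes adiponectin, a hormone that fat cells secrete and that acts through the receptors ADIPOR1 and ADIPOR2. Lpl encodes lipoprotein lipase, which frees fatty acids from circulating triglyceride, and Angptl4 encodes a secreted protein that inhibits that lipase. Fabp4 encodes the fatty acid binding protein of the fat cell cytosol. Angptl4 is also known as a target of glucocorticoids and of other PPAR receptors.

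The Adipoq promoter is shown because Adipoq was called higher with the mix and lower when TCDD was added to it, and because C/EBP factors, which drive fat cell genes, took their name from the letters CCAAT, which NF-Y binds. It is the sequence of the 250 bases before the gene's start, from RefSeq (GRCm38.p6, chr16:23146286-23146535, plus strand). Capitals mark each CCAAT or its reverse complement ATTGG.
Adipoq: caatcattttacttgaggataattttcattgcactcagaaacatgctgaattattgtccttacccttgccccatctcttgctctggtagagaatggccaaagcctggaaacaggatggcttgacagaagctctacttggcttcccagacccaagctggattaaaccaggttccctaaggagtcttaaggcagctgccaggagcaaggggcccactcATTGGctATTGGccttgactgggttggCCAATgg
CCAAT was present 3 times, on the minus strand at -34 to -30 and -27 to -23 and on the plus strand at -7 to -3, counted back from the start. At least 1 CCAAT on either strand was found in 33.8% of 32851 mouse promoters of the same length, and at least 3 in 2.79%. No match was found in this window to AGGTCA (the nuclear receptor core, in 14.0% of promoters), to its direct repeat with 1 base between (DR1, up to 2 mismatches, 3.24%), to GCGTG (the core bound by the aryl hydrocarbon receptor, 28.2%) or to TGTTCT (a glucocorticoid receptor sequence, 16.1%). Both strands were searched, AGGTCA and DR1 overlap by construction, and these matches are descriptions of letters. Of the 4 genes, Adipoq alone had an entry in the promoter table.

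Intensities are on a linear scale with a common trimmed mean for all arrays. Anything below 143.5, the 20th percentile over all arrays, was raised to that floor before log2 was taken, and a group whose arrays all lie below it gives a bound only. Of the 8 probe sets 7 passed the filter on low values. Adipoq and both Lpl probe sets passed through the IDMB group alone. Fabp4 passed through 3 groups, all with the mix: IDMB, IDMB + TCDD and IDMB + EGF. Angptl4 96118_at passed through 3 groups, UT, IDMB + TCDD and IDMB + EGF, and 2 Angptl4 probe sets through all 8 groups. The remaining Angptl4 probe set, 161518_r_at, ran from 16 to 355.3, was below the floor on 6 arrays and was not tested. Levels of different probe sets are not compared with each other, since each has its own probes.

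Of markers of the labelled cell type, all 13 fibroblast genes were above the floor in some array of each group, with summed intensities of 470584 to 547069 on UT arrays, 320220 to 377980 on TCDD arrays, 309358 to 349275 on IDMB arrays and 337710 to 354827 on IDMB + TCDD arrays. Of 12 genes of macrophages, which also express Lpl and Fabp4, 2 to 6 were below the floor on all arrays of a group (sums 5980 to 13453). Ptprc, Adgre1, Itgam, Lyz2, Tyrobp, Fcer1g and Cd53 were below it on 11 to 16 of the 18 arrays, while Cd14 (3354.4 to 10449.9), Csf1r and Laptm5 were above it on all arrays. The macrophage sum was higher on TCDD (11717 to 13453) than on UT arrays (8380 to 9743). Of 9 genes of endothelial cells, which also express Fabp4, 1 to 3 were wholly below the floor in a group (sums 8606 to 17351), with Cdh5, Vwf and Tie1 below it on 16, 15 and 12 arrays and Eng (5674.7 to 13533.8) and Flt1 above it on all. Of 7 markers of mature fat cells on the array, 0 to 3 were wholly below the floor in a group (sums 3023 to 6640), with Cidec, Retn and Cidea below it on 15, 14 and 9 arrays and Lep (1450 to 3588.4), Gpd1 and Lipe above it on all. The 3′ to 5′ signal ratio of the actin control probes, a sign of RNA integrity, moved with the mix and with EGF. It was 1.37 to 1.43 on UT arrays, 1.52 to 1.90 on EGF arrays and 1.64 to 1.93 on EGF+TCDD arrays. With the mix it was 1.80 to 2.25 on IDMB arrays, 2.24 to 2.39 on IDMB + EGF arrays and 2.48 to 3.80 on IDMB + EGF + TCDD arrays. The Gapdh ratio was 1.25 to 1.52 on UT arrays, lower on TCDD arrays (0.854 to 0.919) and higher on EGF+TCDD arrays (2.34 to 2.71), with 1.43 to 2.47 on EGF arrays. With the mix it was 1.19 to 1.73 on IDMB arrays, 1.05 to 1.09 on IDMB + TCDD arrays and 2.13 to 2.86 on IDMB + EGF + TCDD arrays. Fits with either ratio as a covariate are given where they end a call; the part of the marker sums in the results was not tested. Arrays hold RNA from whole cultures, so fewer cells of a type and less RNA per cell cannot be told apart.

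**Figure D1:**
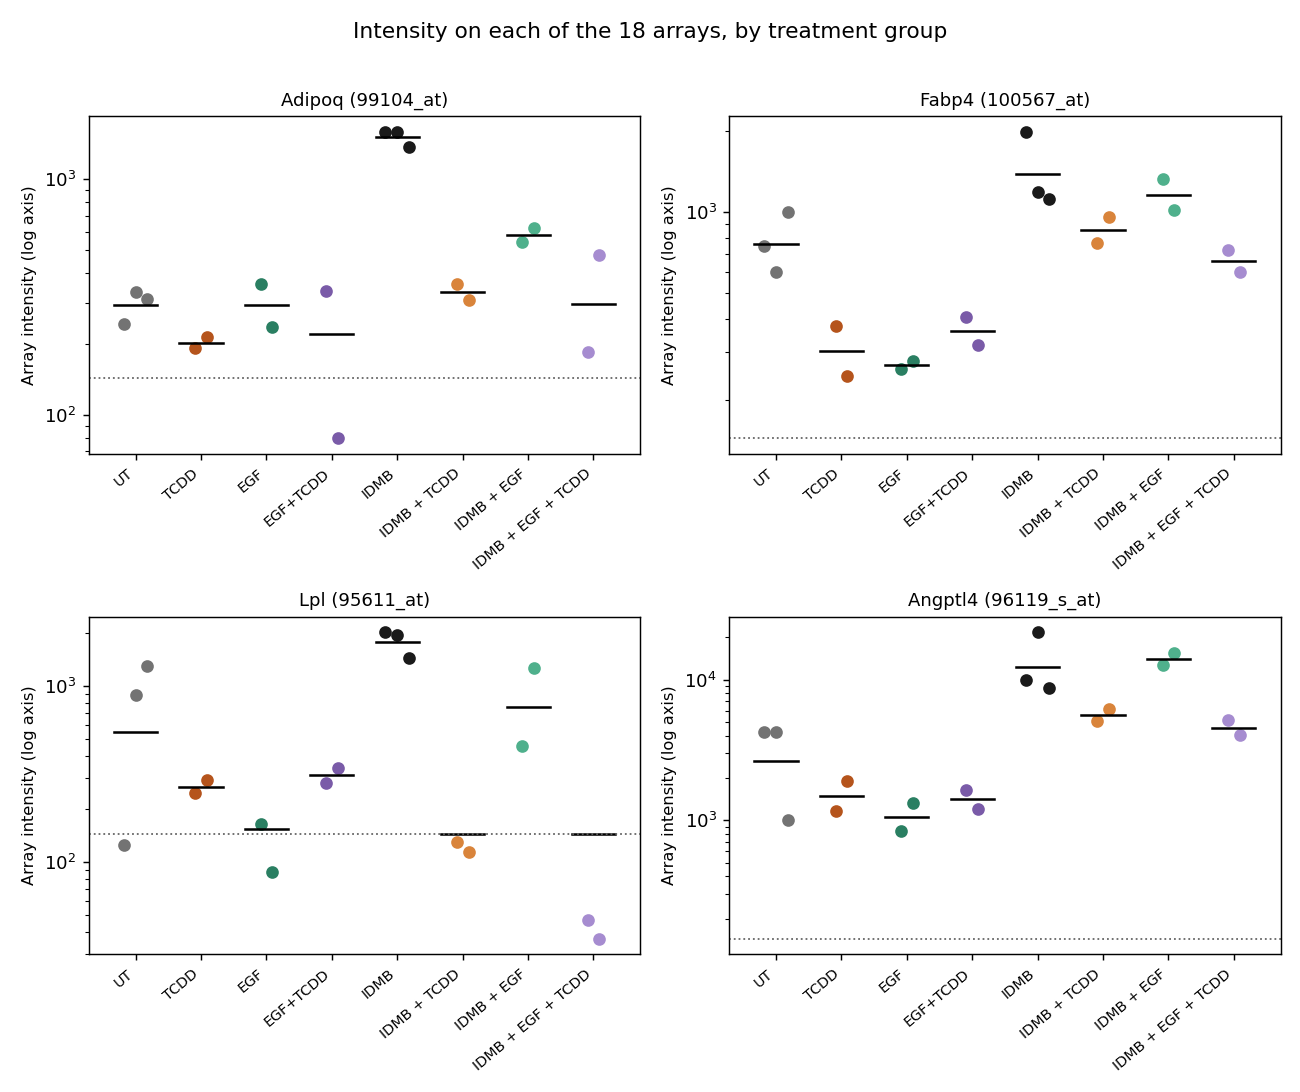
Intensity of the representative probe sets of Adipoq, Fabp4, Lpl and Angptl4 (log axis, arbitrary units) on each array, with 1 point per array, a black bar at each group's geometric mean after flooring, and a dotted line at the floor of 143.5. The 3 IDMB arrays lie at 1378.3 to 1593.4 for Adipoq and at 1436.6 to 2028.2 for Lpl, above every other array, while both groups that combine IDMB with TCDD lie below the floor for Lpl.

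Each comparison was fitted with limma over all arrays, and a probe set is called where its Benjamini-Hochberg adjusted p is under 0.05. Shares of all 7134 tested probe sets called in either direction are given beside the members' counts. Comparisons with the same background share arrays. IDMB against UT called 2 of the 7 member probe sets, both higher, beside 14.1% of all. IDMB + TCDD against TCDD called 2 higher (12.8% of all), and IDMB + EGF against EGF 3 higher (10.8% of all). IDMB + EGF + TCDD against EGF+TCDD called 0 of the 7, with 2 at an unadjusted p under 0.05 (6.5% of all were called). Weighting the 4 backgrounds equally, the mean effect of IDMB called 4 higher and 0 lower (34.1% of all). Adipoq and both Lpl probe sets were tested because their IDMB mean passed the filter, which favours higher values in IDMB and lower values against it. Fabp4 was tested through 3 groups that all hold the mix, which favours higher values with the mix. These counts therefore describe the members and support nothing.

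TCDD against UT called 1 of 7, lower (7.68% of all). TCDD added to the mix, IDMB + TCDD against IDMB, called 2 lower (6.59% of all), both of them admitted by their IDMB mean. EGF+TCDD against EGF called 0, and 0 passed an unadjusted p of 0.05 (0.28% of all called). IDMB + EGF + TCDD against IDMB + EGF called 0, with 2 at an unadjusted p under 0.05 (0.364% of all). Averaged over backgrounds, TCDD called 2 lower (5.54% of all). EGF against UT called 1 lower (6.17% of all). The other EGF comparisons called 0 of 7 each: EGF+TCDD against TCDD (3.5% of all; 0 at an unadjusted p under 0.05), IDMB + EGF against IDMB (3.8%; 2) and IDMB + EGF + TCDD against IDMB + TCDD (0.28%; 0). Averaged over backgrounds, EGF called 0, with 2 at an unadjusted p under 0.05 (13.1% of all). For EGF and TCDD given together, EGF+TCDD against UT called 0 (5.4% of all; 2 unadjusted), and IDMB + EGF + TCDD against IDMB called 2 lower (6.81% of all). None of the limma tests of an interaction listed next called a member. Differences between effects that were picked after the values were seen are in the closing section. IDMB by TCDD called 0.112% of all (2 members at an unadjusted p under 0.05), IDMB by EGF 0.126% (1), EGF by TCDD 4.47% (2), and EGF by TCDD 0.364% without IDMB (1) and 0.981% within IDMB (0).

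Adipoq, the adiponectin gene, was highest after IDMB alone and lower when TCDD was added to the mix. Its probe set, 99104_at, read 244, 331.5 and 311.1 on the UT arrays. The IDMB arrays read 1589.5, 1593.4 and 1378.3. Without IDMB, the TCDD arrays read 192.5 and 213.5, the EGF arrays 360.5 and 236.3, and the EGF+TCDD arrays 336.4 and 79.5, the last below the floor. All 3 IDMB arrays were above every other array. With the mix, the IDMB + EGF arrays read 542 and 623.7, the IDMB + TCDD arrays 361 and 306.7, and the IDMB + EGF + TCDD arrays 184.9 and 476.4. The IDMB + EGF arrays came next after IDMB, and the arrays of the remaining groups lay between 79.5 and 476.4. In the order of group means, where a group stands above the next if their arrays do not overlap and the gap exceeds both SDs, IDMB (10.57 on the log2 scale, SD 0.12, n = 3) stood above IDMB + EGF (9.18, SD 0.14, n = 2), which stood above IDMB + TCDD (8.38, SD 0.17, n = 2). Below these, each neighbouring pair of groups overlapped, from IDMB + TCDD through IDMB + EGF + TCDD, UT, EGF and EGF+TCDD to TCDD (7.66, SD 0.11, n = 2).

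Adipoq was tested through its IDMB mean alone, which favours higher values in IDMB and lower values against it. The p-values of Adipoq comparisons that hold the IDMB group, the exact ones among them, describe the fits and support nothing. Adipoq was 5.18-fold higher in IDMB than in UT (log2 2.37, SE 0.45, 95% interval 1.41 to 3.33, limma adjusted p = 0.00173). This call was kept in each fit without 1 of these 6 arrays (adjusted p up to 0.00955). In the other backgrounds the log2 differences were smaller and not called: 0.71 in TCDD (95% interval -0.46 to 1.89), 0.99 in EGF (-0.18 to 2.17) and 0.43 in EGF+TCDD (-0.74 to 1.61). For Adipoq, the mean effect of the mix was log2 1.13 (SE 0.27, adjusted p = 0.00361). An exact two-sided permutation test over the 4320 relabellings within backgrounds gave p = 0.00324, with the IDMB arrays higher without overlap in 3 of 4 backgrounds. With the actin ratio as a covariate, the difference for Adipoq was 1.75 (adjusted p = 0.116) for IDMB against UT and 0.39 (adjusted p = 0.789) for the mean effect.

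The reference group IDMB is the one through which Adipoq was tested, which favours lower values against it. In cells given the mix, Adipoq was called 4.56-fold lower with TCDD than in IDMB alone (log2 -2.19, SE 0.51, 95% interval -3.26 to -1.12, limma adjusted p = 0.0159). This call was lost without IDMB replicate 2 (adjusted p = 0.0541), without IDMB + TCDD replicate 1 (0.0736) or replicate 2 (0.119), at log2 differences of -2.31 to -2.07, and with the Gapdh ratio as a covariate (-2.08, adjusted p = 0.0696). With EGF present as well, IDMB + EGF + TCDD against IDMB, Adipoq was 5.11-fold lower (log2 -2.35, SE 0.51, adjusted p = 0.0105). That call was lost without IDMB + EGF + TCDD replicate 1, the lower of its 2 arrays (-1.67, adjusted p = 0.165), and with the actin (-3.18, adjusted p = 0.0829) or Gapdh ratio (-2.59, adjusted p = 0.128) as a covariate. Against IDMB + EGF, adding TCDD gave -0.97 (95% interval -2.14 to 0.20, adjusted p = 0.803). Without the mix, TCDD against UT gave -0.53 (95% interval -1.60 to 0.54), with both TCDD arrays below all UT arrays. Over all backgrounds the mean effect of TCDD on Adipoq was log2 -1.02 (SE 0.27, adjusted p = 0.0318, exact permutation p = 0.0025). The limma call was lost in 12 of the 18 fits without 1 array (adjusted p up to 0.0820) and kept without UT replicate 1 or 3, EGF replicate 2, EGF+TCDD replicate 1, IDMB replicate 3 or IDMB + EGF + TCDD replicate 2. The IDMB by TCDD interaction was -1.11 (SE 0.53, adjusted p = 0.617).

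EGF gave no called change of Adipoq. Added to the mix, it went with values 2.61-fold below IDMB alone (log2 -1.38, SE 0.51, 95% interval -2.46 to -0.31, limma adjusted p = 0.143), and the groups did not overlap. Without the mix the difference was -0.01 (95% interval -1.08 to 1.07). Its mean effect on Adipoq was -0.36 (SE 0.27, adjusted p = 0.405, exact permutation p = 0.184 over 3600 relabellings).

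Fabp4, the fatty acid binding protein, was higher with the mix over all backgrounds and lower after TCDD or EGF alone. Its probe set, 100567_at, read 744.8, 596.7 and 998.2 on the UT arrays and 1993.9, 1192.8 and 1124 on the IDMB arrays. The TCDD arrays read 376.4 and 244.3, the EGF arrays 259.9 and 279.2, and the EGF+TCDD arrays 405.6 and 319.8. These 6 values were all below the UT arrays. With the mix, the IDMB + TCDD arrays read 765.6 and 959.1, the IDMB + EGF arrays 1325.1 and 1018.7, and the IDMB + EGF + TCDD arrays 725.5 and 598.1. All of these were above the arrays of the same treatment without the mix. No array was below the floor. In the order of means, IDMB (10.44 on the log2 scale, SD 0.45, n = 3) and IDMB + EGF (10.18, SD 0.27, n = 2) overlapped, and IDMB + TCDD, UT and IDMB + EGF + TCDD formed a second run of overlapping neighbours (9.74, 9.57 and 9.36, SD 0.23, 0.37 and 0.20). EGF+TCDD, TCDD and EGF overlapped at the bottom (8.49, 8.24 and 8.07, SD 0.24, 0.44 and 0.07).

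Fabp4 passed the filter at 9.73 only through IDMB, IDMB + TCDD and IDMB + EGF, which favours higher values with the mix. The p-values of its comparisons of groups with and without the mix, the exact one among them, describe the fits and support nothing. On average over backgrounds, Fabp4 was higher with IDMB by log2 1.34, or 2.52-fold (SE 0.19, limma adjusted p = 5.52e-05). It was higher without overlap in 4 of 4 backgrounds, with an exact permutation p of 0.000463, the smallest that 4320 relabellings can give. The call was kept in all 18 fits without 1 array (adjusted p up to 0.000284), but with the actin ratio as a covariate the value was 1.00 (adjusted p = 0.219). By background, Fabp4 rose 4.31-fold in EGF (log2 2.11, SE 0.40, adjusted p = 0.00287), a call kept without each of the 4 arrays. In TCDD it rose 2.83-fold (log2 1.499, SE 0.40, adjusted p = 0.0224). That call was lost without TCDD replicate 2 (1.19, adjusted p = 0.173) or without IDMB + TCDD replicate 1 (1.66, adjusted p = 0.0570) or 2 (1.34, adjusted p = 0.162), and with the actin (1.15, adjusted p = 0.344) or Gapdh ratio (1.402, adjusted p = 0.0524) as a covariate. Against UT the difference was 0.86 (SE 0.33, 95% interval 0.17 to 1.56, adjusted p = 0.0978), and in EGF+TCDD 0.87 (SE 0.40, 95% interval 0.02 to 1.72, adjusted p = 0.235).

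Without the mix, TCDD lowered Fabp4 2.52-fold against UT (log2 -1.33, SE 0.37, limma adjusted p = 0.0372), and EGF lowered it 2.83-fold (log2 -1.50, SE 0.37, adjusted p = 0.0258). Neither call held without each array. For TCDD the call was lost in each of the 5 fits without 1 array (log2 -1.64 to -1.02, adjusted p 0.0599 to 0.261), with no filter (adjusted p = 0.0536) and with the actin (-1.29, 0.0524) or Gapdh ratio (-1.09, 0.352) as a covariate. For EGF it was lost without UT replicate 2 (-1.68, adjusted p = 0.0520), UT replicate 3 (-1.31, 0.0607), EGF replicate 1 (-1.45, 0.129) or EGF replicate 2 (-1.55, 0.159), and with the Gapdh covariate (-1.65, 0.0539). The groups did not overlap in either comparison. EGF and TCDD together gave -1.08 against UT (SE 0.37, 95% interval -1.86 to -0.30, adjusted p = 0.102). In the absence of IDMB the interaction of EGF and TCDD was 1.75 (SE 0.54, adjusted p = 0.140). Within the mix, TCDD gave -0.70 (95% interval -1.47 to 0.08, adjusted p = 0.282) and EGF -0.26 (95% interval -1.04 to 0.52, adjusted p = 0.766). For Fabp4 the mean effect of TCDD was -0.61 (adjusted p = 0.0830, exact permutation p = 0.0164) and that of EGF -0.47 (adjusted p = 0.121, exact permutation p = 0.0478). Of these exact permutation tests of mean effects 21 were run, for 7 probe sets, and their p-values are not adjusted.

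Lpl, lipoprotein lipase, was by its representative probe set highest on the IDMB arrays and below the floor on all arrays that combined the mix with TCDD. That probe set, 95611_at, read 125.1, 888.9 and 1299.8 on the UT arrays, so UT spanned the range from below the floor to near the mix. The IDMB arrays read 2028.2, 1955.2 and 1436.6. The IDMB + TCDD arrays read 130.7 and 114.5 and the IDMB + EGF + TCDD arrays 46.9 and 36.6. All 4 of these were below 143.5. The IDMB + EGF arrays read 459.4 and 1275.8, the TCDD arrays 245.9 and 293.1, the EGF arrays 163.7 and 87.7, and the EGF+TCDD arrays 282.4 and 343.5. The 3 IDMB arrays were above every other array, and without the mix the TCDD arrays overlapped those of UT and of EGF+TCDD. In the order of means IDMB (10.80 on the log2 scale, SD 0.27, n = 3) was followed by IDMB + EGF (9.58, SD 1.04, n = 2) without overlap, then by UT (9.10, SD 1.70, n = 3), EGF+TCDD (8.28, SD 0.20, n = 2) and TCDD (8.07, SD 0.18, n = 2), each overlapping its neighbour. EGF (7.26, SD 0.13, n = 2, 1 array below the floor) lay below TCDD without overlap.

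Both Lpl probe sets were tested through their IDMB mean alone, which favours higher values in IDMB and lower values against it. Their p-values in comparisons that hold the IDMB group, the exact ones among them, describe the fits and support nothing. By 95611_at, Lpl was called at least 12.4-fold lower in IDMB + TCDD than in IDMB (log2 -3.64 against the floor, SE 0.72, limma adjusted p = 0.00585), where the dim group enters at the floor. The same bound holds for IDMB + EGF + TCDD against IDMB (log2 -3.64, adjusted p = 0.00653). Without IDMB + TCDD replicate 2 the first call was lost (-3.63, adjusted p = 0.0573). The second was lost without either IDMB + EGF + TCDD array (adjusted p = 0.0524 and 0.0650), and with the actin (-3.53, adjusted p = 0.230) or Gapdh ratio (-3.13, adjusted p = 0.207) as a covariate. With EGF in both groups, Lpl was at least 5.34-fold lower with TCDD (log2 -2.42, SE 0.79, adjusted p = 0.386), which was not called. By background, the arrays with TCDD were lower without overlap in 2, both with the mix, higher in 1 (1.02 for EGF+TCDD against EGF) and overlapping in 1. The mean effect of TCDD on Lpl was called lower (log2 -1.52, SE 0.38, adjusted p = 0.0257, exact permutation p = 0.0231), where 2 of the 4 TCDD groups enter at the floor. That call was lost in 10 of the 18 fits without 1 array (adjusted p up to 0.0681), and kept without UT replicate 1 or 3, TCDD replicate 2, any IDMB array, IDMB + TCDD replicate 2 or IDMB + EGF replicate 1. It was also lost with no filter on low values (adjusted p = 0.0734) and with the actin covariate (-1.50, adjusted p = 0.0627). Without the mix, TCDD against UT gave -1.03 (95% interval -2.56 to 0.49, adjusted p = 0.411), or -2.001 (adjusted p = 0.0409) without UT replicate 1, the array below the floor.

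IDMB against UT gave log2 1.70 for Lpl (SE 0.65, 95% interval 0.33 to 3.07, limma adjusted p = 0.0965). The value ran from 0.73 to 2.33 in the fits without 1 array and was called without UT replicate 3 (2.33, adjusted p = 0.0312). In EGF the mix gave 2.32 (SE 0.79, adjusted p = 0.0740). In both backgrounds that held TCDD the groups with the mix were the lower ones, at least 1.87-fold against TCDD (adjusted p = 0.502) and at least 2.17-fold against EGF+TCDD (adjusted p = 0.475). The groups did not overlap in any of the 4 backgrounds, 2 with the mix higher and 2 with it lower. For Lpl the mean effect of IDMB was 0.50 (SE 0.38, adjusted p = 0.337, exact permutation p = 0.350). With both dim groups at the floor, the IDMB by TCDD interaction was -3.02 (SE 0.76, 95% interval -4.62 to -1.42, adjusted p = 0.206, unadjusted p = 0.00104). EGF gave -1.84 against UT (adjusted p = 0.152; -2.81 and 0.0124 without UT replicate 1) and -1.22 against IDMB (95% interval -2.75 to 0.31, adjusted p = 0.377). The comparison of IDMB + EGF + TCDD with IDMB + TCDD has no value, since both groups were below the floor.

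The second Lpl probe set, 160083_at, gave no called difference. It read 145.8, 328.9 and 368.2 on UT arrays, 883.7, 1577.1 and 484.8 on IDMB arrays, and 146.4 and 237 on IDMB + TCDD arrays. The TCDD arrays read 40.6 and 186.3, the EGF arrays 164.1 and 95.5 and the EGF+TCDD arrays 496.4 and 270.8. The IDMB + EGF arrays read 39.5 and 501.6 and the IDMB + EGF + TCDD arrays 398.7 and 82.3, so each of these groups held 1 array below the floor. IDMB against UT gave log2 1.75 (SE 0.66, limma adjusted p = 0.0924) and IDMB + TCDD against IDMB -2.24 (SE 0.73, adjusted p = 0.0798). Both had the direction of the first probe set and neither was called. For 160083_at the mean effect of TCDD was -0.45 (SE 0.39, limma adjusted p = 0.569, exact permutation p = 0.345), with EGF+TCDD above EGF without overlap (1.26). In the 2 probe sets the log2 difference of IDMB + EGF + TCDD against EGF+TCDD was -1.12 and -0.62, and that of IDMB + TCDD against TCDD -0.90 and 0.19.

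Angptl4, the inhibitor of lipoprotein lipase, rose with the mix by its representative probe set, with all arrays higher than those of the same background without it. That probe set, 96119_s_at, read 4254.4, 4252.5 and 1004.5 on the UT arrays and 9930.5, 21781.4 and 8730.8 on the IDMB arrays. The TCDD arrays read 1160.4 and 1900.2, the EGF arrays 841.3 and 1324.9, and the EGF+TCDD arrays 1643.8 and 1210.2. UT replicate 3 lay with these, and the other UT arrays above them. The IDMB + TCDD arrays read 5108 and 6232.5, the IDMB + EGF arrays 12755.5 and 15467.4, and the IDMB + EGF + TCDD arrays 5174.1 and 4007.5. Of the 9 arrays with the mix, IDMB + EGF + TCDD replicate 2 alone did not exceed every array without it. In the order of means, IDMB + EGF (13.78 on the log2 scale, SD 0.20, n = 2) and IDMB (13.59, SD 0.71, n = 3) overlapped and lay above IDMB + TCDD (12.46, SD 0.20, n = 2) and IDMB + EGF + TCDD (12.15, SD 0.26, n = 2). UT (11.36, SD 1.20, n = 3), TCDD (10.54, SD 0.50), EGF+TCDD (10.46, SD 0.31) and EGF (10.04, SD 0.46) followed, each overlapping its neighbour.

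Averaged over backgrounds, IDMB raised Angptl4 by log2 2.40, or 5.26-fold (SE 0.27, limma adjusted p = 3.66e-06). The exact permutation p was 0.000463, the smallest possible, with the mix higher without overlap in 4 of 4 backgrounds. The call was kept in all 18 fits without 1 array and with the actin ratio as a covariate (2.52, adjusted p = 0.0215). Angptl4 rose 13.3-fold in EGF (log2 3.73, SE 0.56, adjusted p = 0.000332) and 4.70-fold against UT (log2 2.23, SE 0.45, adjusted p = 0.00289), both kept without each array, although the second ran from 1.54 to 2.58. In TCDD the rise was 3.80-fold (log2 1.93, SE 0.56, adjusted p = 0.0324), a call lost in each of the 4 fits without 1 array (1.57 to 2.28, adjusted p 0.0669 to 0.198), with no filter (adjusted p = 0.121), without the trend (0.0566) and with the actin (2.06, 0.213) or Gapdh ratio (1.72, 0.0768) as a covariate. In EGF+TCDD the difference was 1.69 (SE 0.56, adjusted p = 0.0852).

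TCDD went with lower Angptl4 in cells given the mix, without a call. The log2 difference was -1.13 against IDMB (SE 0.51, 95% interval -2.21 to -0.05, limma adjusted p = 0.195) and -1.63 against IDMB + EGF (SE 0.56, 95% interval -2.80 to -0.45, adjusted p = 0.451), and the groups did not overlap in either. Averaged over backgrounds the TCDD difference was -0.79 (SE 0.27, adjusted p = 0.105, exact permutation p = 0.0431). Without UT replicate 3, the low UT array, the mean effect of TCDD on Angptl4 was called (-0.96, adjusted p = 0.00511), as were TCDD (-1.52, 0.0209), EGF (-2.01, 0.00661) and EGF+TCDD (-1.59, 0.0226) against UT. With it these last were -0.82, -1.32 and -0.90 (adjusted p = 0.345, 0.144 and 0.360). EGF added to the mix gave 0.18 (95% interval -0.89 to 1.26).

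The other Angptl4 probe sets did not all follow the first. By their suffixes, 96119_s_at and 102114_f_at are of kinds that can match several related transcripts, and 96118_at is not. Probe set 102114_f_at read 4928.7, 4148.3 and 397 on UT arrays and 8312, 7277.8 and 5700.3 on IDMB arrays. It gave a mean effect of IDMB of log2 1.91 (SE 0.37, limma adjusted p = 0.000803, exact permutation p = 0.000463) and was again lowest on UT replicate 3. It was called in EGF (2.75, SE 0.77, adjusted p = 0.0311), a call lost in each fit without 1 of the 4 arrays (adjusted p 0.0994 to 0.146) and with no filter (0.126), without the trend (0.0567) or with the actin covariate (0.0920), and not against UT (1.80, SE 0.63, adjusted p = 0.0698; 2.45 and 0.0169 without UT replicate 1, 2.33 and 0.0326 without UT replicate 2, but 0.63 and 0.163 without UT replicate 3). With the actin covariate its mean effect of IDMB was 2.23 (adjusted p = 0.15). Probe set 96118_at read 1204.8, 1721.9 and 967.5 on UT arrays and 651.8, 986.4 and 525.4 on IDMB arrays. Its difference of IDMB against UT was -0.86 (SE 0.47, adjusted p = 0.285), opposite in sign to those of 96119_s_at and 102114_f_at, and its mean effect of IDMB was 0.44 (adjusted p = 0.243). It was lower on both EGF arrays, 384 and 422.8, than on all UT arrays (log2 -1.65, SE 0.53, adjusted p = 0.0777). The first probe set correlated with 102114_f_at at r = 0.936 and with 96118_at at r = 0.419 over the 18 arrays, as a description of arrays that share treatments.

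**Figure D2:**
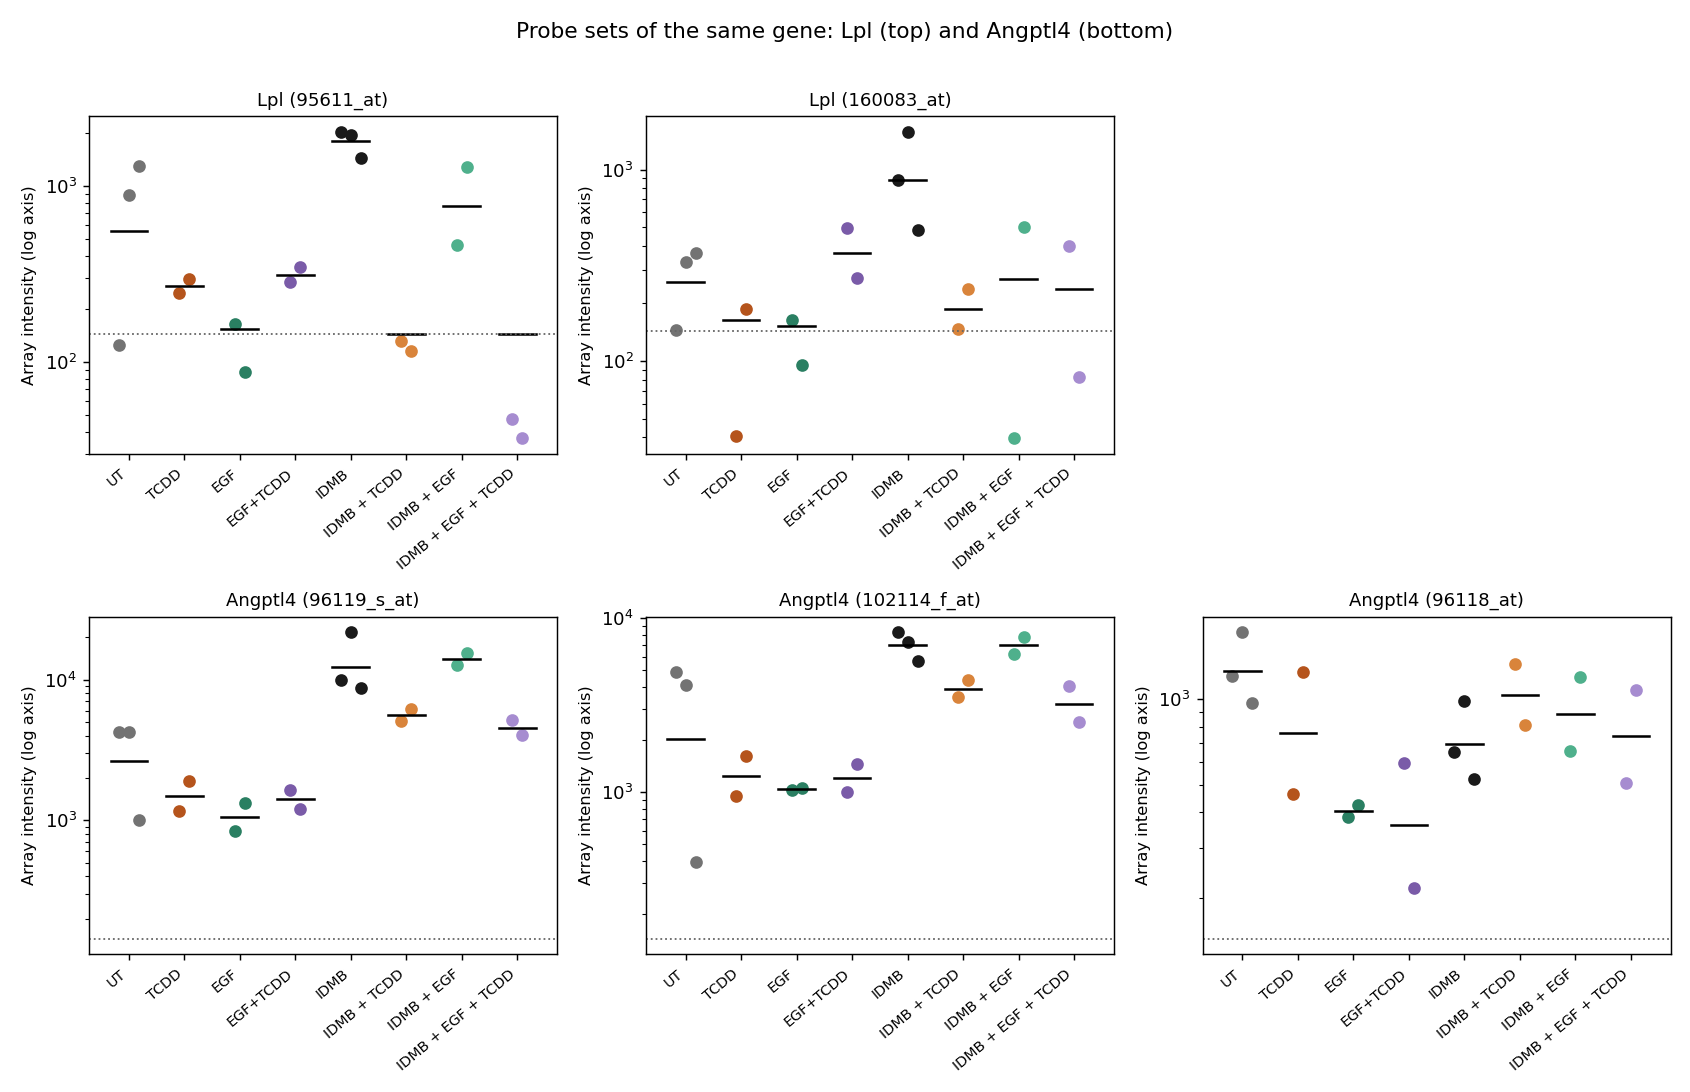
Intensity (log axis, arbitrary units) of the 2 Lpl probe sets and of the 3 Angptl4 probe sets that passed the filter, with 1 point per array, bars at geometric means after flooring and a dotted line at the floor. Angptl4 96119_s_at and 102114_f_at rise with IDMB, while 96118_at reads 651.8, 986.4 and 525.4 on the IDMB arrays and 1204.8, 1721.9 and 967.5 on the UT arrays.

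Side by side, the representative probe sets of the 4 genes differed in how they stood in IDMB + TCDD. Against TCDD without the mix, Fabp4 (log2 1.499) and Angptl4 by its representative probe set (1.93) were called higher. Neither of these calls held in each fit that left out an array. The other tested Angptl4 probe sets were not called, at 1.67 for 102114_f_at and 0.45 for 96118_at. Adipoq was 0.71 and not called, and Lpl was below the floor by 95611_at and 0.19 by 160083_at, not called. Against IDMB alone, Adipoq (-2.19) and Lpl (95611_at, at most -3.64) were called lower, while Fabp4 (-0.70) and Angptl4 (-1.13) were not. Lpl by 160083_at (-2.24) and Angptl4 by 102114_f_at (-0.84) and 96118_at (0.58) were not called either, the last with the opposite sign. These comparisons share the IDMB + TCDD arrays, and differences between genes were not tested. Adipoq and Lpl were tested through their IDMB mean alone, which favours lower values against IDMB. Fabp4 was tested through groups with the mix alone, IDMB + TCDD among them, which favours its higher values against TCDD. In EGF the mix gave, by the representative probe sets, 3.73 for Angptl4, 2.11 for Fabp4, 2.32 for Lpl and 0.99 for Adipoq. The first 2 of these were called.

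**Figure D3:**
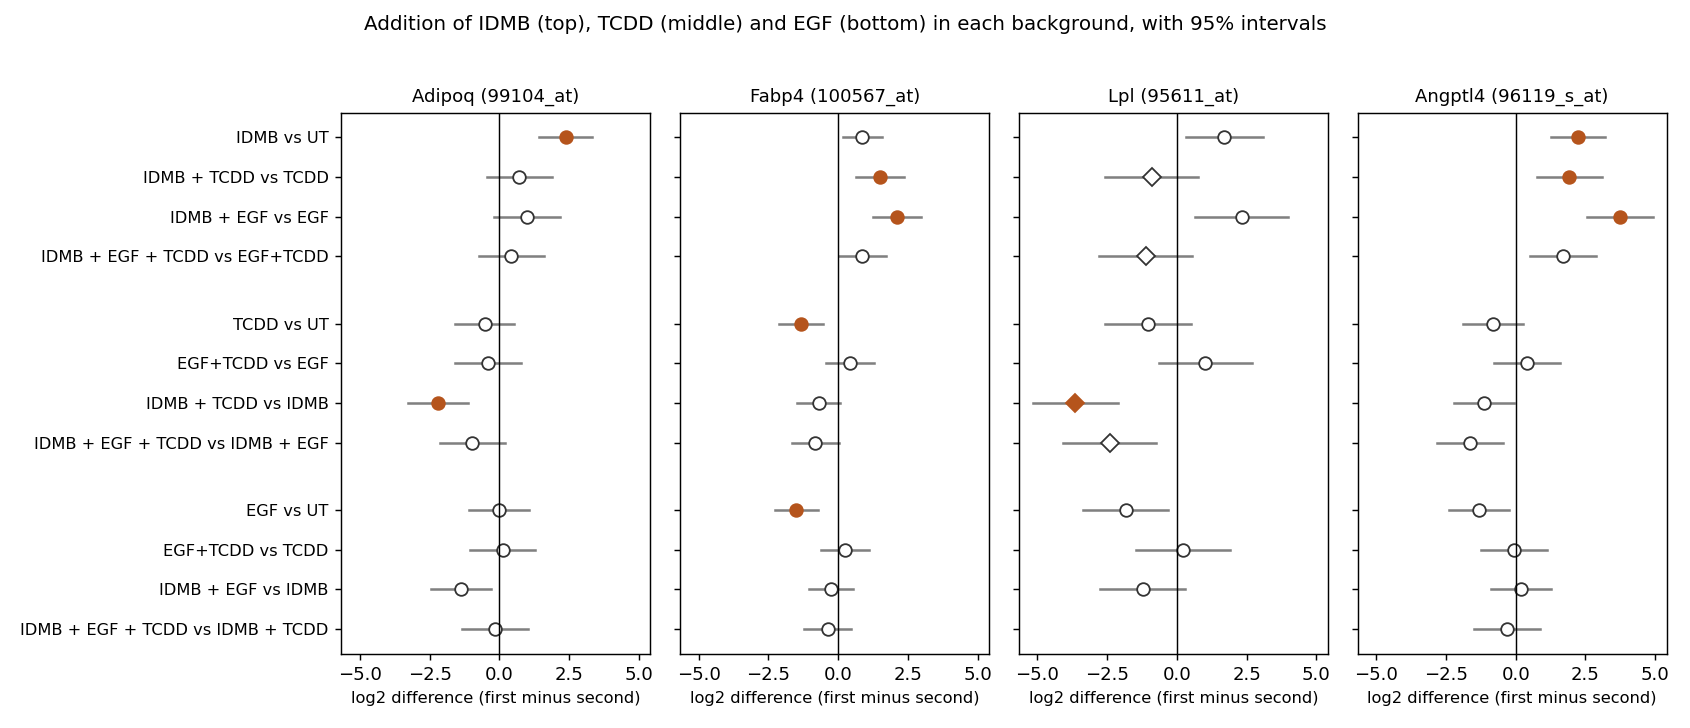
Log2 differences with 95% intervals from limma for the representative probe sets, for the addition of IDMB, TCDD or EGF in each background. Filled symbols are called (adjusted p under 0.05), diamonds mark Lpl differences in which a group wholly below the floor enters at the floor, and the pair with both groups below it is left out; for IDMB + TCDD against IDMB the points lie at -2.19 for Adipoq and -3.64 for Lpl.

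The genes whose log2 values went most closely with each member over the 18 arrays are given with Pearson's r, as a description without a test. For Adipoq these were Plxna2 (r = 0.921), the lipid droplet gene Plin2 (0.898), the epoxide hydrolase gene Ephx2 (0.891), Apcdd1 (0.885) and Srebf1 (0.872), a regulator of lipid synthesis. For Lpl they were the lipid droplet gene Plin4 (0.825), Nabp1 (0.809), Hprt (0.804), Plin2 (0.787) and Fabp5 (0.764). Plin2 was thus near both Adipoq and Lpl. For Fabp4 they were Samhd1 (0.894), Man1a (0.876), Ldhb (0.875), Cox7a2l (0.872) and Plxnd1 (0.872), and for Angptl4 St3gal1 (0.958), Rin2 (0.929), Ctla2b (0.920), Ap3s1 (0.915) and Ldhb (0.907). Among the members, Fabp4 and Angptl4 had the highest correlation (0.799) and Lpl and Angptl4 the lowest (0.458). The 18 arrays share treatments and scaling. Ranked over the 8 group means in place of the arrays, the genes named for Adipoq lay at ranks 2 to 21, those for Fabp4 at 9 to 26, those for Lpl at 2 to 33 and those for Angptl4 at 2 to 30.

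Of 48 other genes of fatty acid uptake, lipase handling and fat cell hormones, the array carried 36, of which 20 were tested. Cd36, the fatty acid translocase, was below the floor on 14 arrays, and the hormone gene Retn on 14, and neither was tested. IDMB against UT called 6 of the 20 higher and 2 lower (14.1% of all probe sets), with a median log2 difference of -0.08 beside -0.01 over all tested probe sets. The higher ones were the adiponectin receptor Adipor2 (log2 2.17, SE 0.14, limma adjusted p = 3.04e-08), Nampt (2.36, SE 0.21, adjusted p = 1.32e-06), Lcn2 (1.78), Lrp1 (0.84), the acyl-CoA synthetase Acsl4 (0.99) and Cdh13, which binds adiponectin (2.23, lost without IDMB replicate 2 at 2.12 and adjusted p = 0.0514, 1.35 and 0.0439 without UT replicate 3, lost with no filter at 0.0689 and with the actin covariate at 0.102). The lower ones were Cav1 (-1.43) and Hspg2 (-1.01; -0.81 and adjusted p = 0.0949 with the actin covariate). Adipor2 was called higher with the mix in all 4 backgrounds, at 2.17, 1.44 in TCDD, 1.15 in EGF and 1.04 in EGF+TCDD. Averaged over backgrounds, IDMB called 6 of the 20 higher and 4 lower (34.1% of all), the latter Acsl5, Cav1, Pcsk6 and Hspg2; with the actin covariate the count in all was 6.

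TCDD added to the mix called 0 of the 20 higher and 3 lower (6.59% of all): Fabp5 (log2 -1.10, SE 0.31, limma adjusted p = 0.0426), Acsl5 (-0.74, SE 0.20, adjusted p = 0.0342) and Adipor2 (-0.57, SE 0.15, adjusted p = 0.0372). The count of 3 fell to 0 without IDMB replicate 2 or without IDMB + TCDD replicate 1, and to 1 without IDMB replicate 1 or without IDMB + TCDD replicate 2. It was also 0 without the trend or with the Gapdh covariate and 1 with median scaling, quantile normalization or no filter. IDMB + EGF + TCDD against IDMB called 3 lower (6.81% of all), Fabp5 (-1.09), Nampt (-1.90) and Adipor2 (-0.74), and the count fell to 1 without IDMB + EGF + TCDD replicate 2 or with the Gapdh covariate and to 0 with the actin covariate. Over all backgrounds TCDD lowered Nampt (-0.52) and Adipor2 (-0.40), and the count of 2 fell to 1 in 5 of the 18 fits without 1 array, with no filter and with the actin covariate (5.54% of all were called). The call lost was that of Nampt, in the fits without TCDD replicate 1, EGF replicate 1, EGF+TCDD replicate 1, IDMB + EGF replicate 2 or IDMB + EGF + TCDD replicate 2 (-0.50 to -0.42, adjusted p up to 0.0640). TCDD against UT called 0 of the 20 in limma, as did EGF+TCDD against EGF (7.68% and 0.28% of all). EGF against UT called Adipor2 higher (0.93) and Lcn2 lower (-2.42; 6.17% of all), and EGF added to the mix called Slc27a4, a fatty acid transporter, higher (1.44, adjusted p = 0.046) and Nampt lower (-1.32; 3.8% of all). These last calls were not refitted under the alternatives.

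Of 8 regulators of these genes, 7 passed the filter. IDMB against UT called 5 of these higher and 1 lower (14.1% of all), in a list chosen with earlier results known. Cebpb and Cebpd, early factors of fat cell differentiation, were called higher with the mix in all 4 backgrounds (log2 1.38 to 2.15 and 0.93 to 1.65, limma). Pparg was 1.35 higher in IDMB than in UT (adjusted p = 0.0132; lost without UT replicate 3 at 0.0639 or IDMB replicate 1 at 0.0648, and with the actin covariate at 0.110) and not called in the other 3 backgrounds (0.45 to 1.12). Against IDMB alone, Pparg was -1.27 with TCDD (SE 0.38, adjusted p = 0.0584), -1.003 with EGF (adjusted p = 0.161) and -2.16 with both (SE 0.38, adjusted p = 0.0031; -1.64 and 0.0836 without IDMB + EGF + TCDD replicate 2; -2.04 and 0.190 with the actin covariate). Cebpa was 1.48 higher in IDMB than in UT (adjusted p = 0.0183), a call kept in 3 of 6 fits without 1 array (0.90 to 1.97) and in 7 of 9 other settings. Against IDMB alone, Cebpa was -0.16 with TCDD, 0.23 with EGF and -1.38 with both (adjusted p = 0.0752). Egfr was called higher in IDMB + TCDD than in IDMB (0.81, adjusted p = 0.0323). It ran from 0.71 to 0.89 without 1 array, and the call was kept in 1 of 5 such fits and in 7 of 9 other settings. Rxra, the partner of PPARG, was 0.81 higher in IDMB than in UT (adjusted p = 0.0417), a call that was kept in the fits without UT replicate 1 or 2 and lost in those without UT replicate 3 (0.43, adjusted p = 0.177) or IDMB replicate 1 (0.0872), 2 (0.0646) or 3 (0.114). It was also lost with median scaling (0.0518), no filter (0.115), no trend (0.0654) or the actin covariate (0.163). Ahr, the receptor of TCDD, was lower in IDMB than in UT (-2.03, adjusted p = 6.98e-05).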

How the data were processed

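The deposited values are intensities on a linear scale, read from their range, for 18 arrays. Arrays had been scaled to a common level before deposit, since their means without the outer 2% of values lay between 2501.38 and 2501.71. The sources used here do not name the software. The precision is limited by the number of arrays. Values were floored at 143.5 (the 20th percentile), log2 was taken, and 66 control probe sets were left out. Probe sets were tested where the highest of 8 group means was at or above 9.73, the overall median on the log2 scale, leaving 7134 for 5438 genes. Symbols come from the platform's annotation. Group means were fitted over all arrays with limma 3.58.1 (R 4.3.3, moderated with a trend), with Benjamini-Hochberg adjustment within each comparison. Intervals are from that fit, and it was tested on simulated data. Mean effects were also tested by exact permutation within backgrounds.

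The members, the uptake and hormone list, the regulators and the markers were chosen with earlier results of these data known. Named genes are all probe sets of the members, the 5 genes most correlated with each, members of the uptake list that were called, and the regulators. Whether replicate numbers pair the arrays was not settled, and the main fit has no block. Over 57 same-numbered pairs the correlation of deviations from group means ran from -0.103 to 0.438 (median 0.047), with 14 over 0.1. The highest were between UT and IDMB (0.438 for replicate 1, 0.248 for replicate 3) and between TCDD and IDMB + TCDD (0.246). Between groups of 2 arrays both pairs have the same value by construction. With the block, the calls of TCDD against UT went from 548 to 816. Alternatives were median scaling, quantile normalization, a floor at the 10th percentile, no floor with 16 added, no filter, no trend, the replicate number as a block (its values are in the closing section), the actin or Gapdh ratio as a covariate, leaving out each array, and correlation over group means.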

Additional observations from a re-analysis of the deposited data

Results flagged for a closer look

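For 10 pairs of comparisons the same treatment went with higher values in one background and lower values in another, without overlap of the arrays in either. The pairs were chosen after the values were seen, and each difference was then fitted in limma with adjustment over all tested probe sets. That adjustment does not cover the choice of the pairs, so the p-values describe the fits and support nothing. Of the 10, 1 was under the threshold. For Lpl (95611_at), TCDD against its absence was 1.02 in EGF and at most -3.64 in IDMB, a difference of 4.66 (SE 1.07, adjusted p = 0.0413), with 92 of all tested probe sets called in that contrast. The probe set was tested through its IDMB mean, a group of this contrast. Since IDMB + TCDD was below the floor, the difference is a lower bound.

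The other pairs were not called. For Lpl, the effect of TCDD in EGF against that in IDMB + EGF differed by 3.44 (adjusted p = 1). The effect of IDMB on Lpl differed by 2.60 between UT and TCDD (adjusted p = 0.262), by 2.82 between UT and EGF+TCDD (0.272), by 3.22 between EGF and TCDD (0.518) and by 3.44 between EGF and EGF+TCDD (1). For the second Lpl probe set, 160083_at, the effect of TCDD differed by 3.49 between EGF and IDMB (adjusted p = 0.136). For Fabp4, the effect of TCDD in EGF (0.42) differed from that in UT by 1.75 (adjusted p = 0.14), from that in IDMB by 1.11 (0.347) and from that in IDMB + EGF by 1.24 (1). With at most 3 arrays in a group, no single array was tested for standing apart.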

How the results depend on the processing

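The number of arrays and the floor limit these results: most calls of Adipoq, Fabp4 and Lpl within a single background rest on 2 arrays in a group, and Lpl 95611_at with TCDD in the mix has bounds only. Directions were kept by all called differences of the 4 representative probe sets under all alternatives run. The lost calls listed next are those in IDMB against UT, IDMB + TCDD against IDMB and the mean effects. Calls lost in other comparisons are given with each gene. With the actin ratio as a covariate, calls were lost for Adipoq in IDMB against UT (1.75) and in the mean effect of IDMB (0.39). The same covariate ended those for Fabp4 in the mean effect of IDMB (1.00) and for Lpl in the mean effect of TCDD (-1.50). With the Gapdh ratio the call was lost for Adipoq in IDMB + TCDD against IDMB (-2.08), and with no filter for Lpl in the mean effect of TCDD (-1.52). Without the trend, Fabp4 was called in IDMB against UT (0.86) and in the mean effect of TCDD (-0.61). With the replicate number as a block, Angptl4 was called in IDMB + TCDD against IDMB (-1.60), the mean effect of TCDD (-1.03), the mean effect of EGF (-0.61), TCDD (-1.30), EGF (-1.79) and EGF+TCDD (-1.37) against UT, and IDMB + EGF + TCDD against EGF+TCDD (1.69) and against IDMB (-1.91). It also gave calls for 102114_f_at in IDMB against UT (1.80) and the mean effect of TCDD (-0.94). Leaving out 1 array, the log2 differences of the mean effect of TCDD ran from -1.20 to -0.85 for Adipoq, -1.75 to -1.33 for Lpl and -0.96 to -0.69 for Angptl4, and those of the mean effect of EGF from -0.95 to -0.53 for Lpl. IDMB + TCDD against IDMB ran from -2.31 to -2.07 for Adipoq and -3.79 to -3.53 for Lpl, and IDMB against UT from 0.73 to 2.33 for Lpl.

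Signs turned for the differences below, none of them called. For Adipoq, IDMB + TCDD against TCDD was -0.059 and IDMB + EGF + TCDD against EGF+TCDD -0.56 with the actin covariate (the latter -0.24 to 1.11 without 1 array); EGF against UT was 0.003 with median scaling and 0.066 with quantile normalization (-0.31 to 0.30 without 1 array). EGF+TCDD against TCDD was -0.31 with the lower floor, -0.25 with no floor, -0.42 with the actin and -0.32 with the Gapdh covariate (-0.51 to 0.73 without 1 array), and EGF by TCDD without IDMB -0.060 with quantile normalization, then -0.30, -0.25, -0.044 and -0.20 in the same order (-0.50 to 0.74). Without 1 array, EGF+TCDD against EGF ran from -1.03 to 0.21, IDMB + EGF + TCDD against IDMB + TCDD from -0.85 to 0.52 and EGF+TCDD against UT from -1.04 to 0.20. For Fabp4, EGF+TCDD against TCDD was -0.29 with the Gapdh covariate (-0.064 to 0.56 without 1 array), IDMB + EGF against IDMB ran from -0.45 to 0.005 and EGF by TCDD within IDMB from -0.38 to 0.067. For Lpl, IDMB by EGF was -0.10 with the lower floor and -0.33 with no floor (-0.17 to 0.69 without 1 array), and EGF by TCDD within IDMB went from 1.22 to -0.065 with no floor. Lpl 160083_at gave 0.24 with the actin and 0.23 with the Gapdh covariate for the mean effect of EGF, and -0.097 to 1.71 for IDMB + EGF against EGF without 1 array. For Angptl4, EGF+TCDD against TCDD was 0.016 with the actin covariate (-0.43 to 0.28 without 1 array), IDMB + EGF against IDMB -0.29 with the block and -0.073 with the Gapdh covariate (-0.066 to 0.59) and EGF by TCDD -0.38 with the Gapdh covariate. Angptl4 96118_at gave -0.063 for the mean effect of IDMB with the actin covariate and -0.33 to 0.037 for the mean effect of TCDD without 1 array. The cause was not tested.

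Over all tested probe sets, the count called fell with the actin covariate from 1004 to 482 for IDMB against UT, from 2432 to 448 for the mean effect of IDMB and from 935 to 0 for the mean effect of EGF, and with the Gapdh covariate from 470 to 267 for IDMB + TCDD against IDMB and from 935 to 0 for the mean effect of EGF. Of 22 comparisons the count moved by over 1.5 times in 17 with the actin and 14 with the Gapdh covariate, 8 with the block, 8 with no filter, 4 with median scaling, 4 without the trend and 1 with quantile normalization. Median scaling moved the median of all in IDMB + TCDD against TCDD from -0.08 to 0.08 and the share of calls that were higher from 51.0% to 69.9%. It moved that share from 50.5% to 36.2% for TCDD against UT, from 54.8% to 42.6% for EGF+TCDD against UT and from 55.0% to 29.7% for IDMB + EGF + TCDD against IDMB + TCDD (44.8% with quantile normalization), and quantile normalization moved it from 44.4% to 57.1% for IDMB by EGF. For IDMB + TCDD against IDMB the 470 calls became 278 without IDMB replicate 2 and 194 and 151 without IDMB + TCDD replicates 1 and 2.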
